A study of Mus musculus with 12 samples.

Results

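The small RNAs of the replication-dependent histone genes were examined in DN3 thymocytes, an early stage of T cell development in the thymus before CD4 or CD8 is made. Members were all entries of the deposited genic list whose gene symbol begins with Hist1h, Hist2h, Hist3h or Hist4h. They made up 1230 of the 54267 distinct sequences in that list (2.27%, 95% exact binomial interval 2.14 to 2.40) and 61 of its 10847 genes. The cells were the control library: sorted by flow cytometry from the thymus of Lck-cre mice backcrossed to C57BL/6, 6 to 7 weeks old. Lck-cre animals express Cre recombinase from the promoter of Lck, a kinase gene of T lineage cells. The series holds 12 small RNA libraries, and the genic list used here belongs to this library alone. RNA of 19 to 30 nt was taken from a gel, and the ligation admitted only molecules that bore a phosphate at the 5′ end and a hydroxyl at the 3′ end. The list names each distinct sequence with its gene, place and orientation, and gives no read number. With 1 library and no abundance there is no replicate check and no test. Intervals are 95% exact (Clopper-Pearson) intervals over distinct sequences and cover counting error only, and sequences from overlapping places are not independent. The number of cells behind the library and the RNA per cell cannot be told apart in such bulk data.

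Replication-dependent histone mRNAs are made in S phase and differ from other mRNAs in that they carry no poly(A) tail. Their 3′ end is formed by a cut a few bases beyond a conserved stem-loop, which the stem-loop binding protein SLBP holds. The cut is directed by the histone downstream element, a purine-rich stretch past the stem-loop that pairs with the 5′ end of the U7 small nuclear RNA. The endonuclease is CPSF73, the product of Cpsf3. The RNA beyond the cut is no part of the mature mRNA.

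Counted as distinct sequences, the sense small RNAs of the histone genes were most numerous just beyond the stem-loop, in the stretch where the histone downstream element is known to lie. Most of these overlapped one another, and with overlapping sequences merged the stretch held 11.2% of the sense clusters in place of 34.9% of the sense sequences. The sequences below, each the most complementary in its gene among those of at most 30 nt, are shown because the main pattern rests on them. Capitals mark the longest run that is exactly complementary to the first 20 bases of the U7 RNA. They were chosen after their positions were seen. The first line is the 5′ end of U7 itself (Rnu7, GENCODE, GRCm38 chr6:124741225-124741286, minus strand), and the second is its reverse complement, with the central AGAGCT in capitals.
Rnu7 bases 1 to 20: aagtgttacagctcttttag
Complement of Rnu7 bases 1 to 20: ctaaaAGAGCTgtaacactt
Hist1h1e: ctcagTAAAAGAGCTGTtgcacattc
Hist1h1d: ttcAAAAGAGCTGagcctttttctggtttt
Hist2h3c2: ttcccggAAAGAGCTGTttacttcgct
Hist1h1c: cccacttAAGAGCTGTgacatttgtgtgat
Hist1h2ad: ttTAAAAGAGCcatttgctgcattttcca
Hist1h4h: atTAAAAGAGCgaacatgtgttt
Hist1h4j: atcttttacagAAGAGCTGacgcttgtt
Hist2h3c1: cccggAAAGAGCTattcagctttttgtctt
Hist1h2bk: accagtattAGAGCTGcaaacatgaattc
Hist1h2bf: aaggGAGCTGTtgccagacaccgaatactg
Hist2h4: gtctcttcaggAGAGCTGacac
Hist4h4: aagcatcagaaagGAGCTGTggacatttgt
Hist1h4a: aagcGCTGTAAtactgaaccacctaacag

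The Hist1h1e sequence, from a gene of the linker histone H1, held the longest run, 12 bases, and lay at chr13:23621746-23621771 on the minus strand of GRCm38. The Hist1h1d sequence (chr13:23555816-23555845, plus strand) and the Hist2h3c2 sequence (chr3:96238450-96238476, minus strand) each held a run of 10. The Hist1h1c sequence lay at chr13:23739534-23739563 on the plus strand with a run of 9, and the Hist4h4 sequence at chr6:136803964-136803993 on the minus strand with a run of 7. All 5 started 47 to 75 bases after the stop codon of their gene.

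Positions were read relative to landmarks in each gene. A gene's own sense sequences were matched exactly to its GENCODE transcripts, which located its start and stop codons in the coordinates of the list. This worked for 47 genes, in which 643 of 644 matches gave the same offset within their gene. The stem-loop, a hairpin of 6 paired bases around a loop of 4 bases, was found within 100 bases after the stop codon in 38 of the 47 genes. Its last base lay 37 to 70 bases after the stop codon, with a median of 46.5. The commonest form, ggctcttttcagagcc, was present in 21 of the 38 genes. These genes held 803 sense sequences. The other 14 genes could not be placed and held 154 sequences, 134 of them sense.

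Of the 803 sense sequences, 280 (34.9%, 31.6 to 38.3) started 1 to 50 bases after the last base of the stem-loop, and they came from 31 of the 38 genes. A further 136 (16.9%) started before the start codon and 146 (18.2%) in the coding sequence. From the stop codon to the end of the stem-loop 16 started (1.99%, 1.14 to 3.22). Coding sequence and stem-loop are partly shared between histone genes, and sequences that fit several genes were nearly absent, as described below. Another 206 (25.7%) started 51 to 2000 bases after the stem-loop, at a median of 238 bases, and 19 lay over 2000 bases away. The order depended on counting overlapping sequences separately. After merging, with each cluster placed by its longest sequence, 30 of 269 sense clusters lay in the stretch (11.2%, 7.65 to 15.5), 1 in each of 30 genes. Then 125 clusters (46.5%, 40.4 to 52.6) lay 51 to 2000 bases after the stem-loop, 52 (19.3%) in the coding sequence and 44 (16.4%) before the start codon. Merging joins any sequences that overlap, so 1 cluster per gene is likely in advance within 50 bases. The number of distinct sequences in the stretch differed between genes, with 68 in Hist1h1c, 20 in Hist1h3g and 1 in Hist2h4. The limit of 50 bases and the merging were set after the positions were seen.

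Within this stretch the 5′ ends were narrowly placed. The median was 12 bases after the stem-loop, the quartiles 9 and 15, and the most common distance 9 bases, with 34 sequences. Only 4 of the 280 started within 5 bases of the stem-loop, and 91.4% started 6 to 20 bases after it. The 3′ ends lay at a median of 35 bases, with quartiles of 33 and 38, and 76.1% (70.6 to 80.9) ended 30 to 40 bases after the stem-loop. Without Hist1h1c, the gene with the most sequences, the medians were 13 and 36 bases. Taken gene by gene, the median 5′ end ranged from 8 to 34 bases over the 31 genes, with a median of 11, and the median 3′ end from 29 to 54, with a median of 35.

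**Figure D1:**
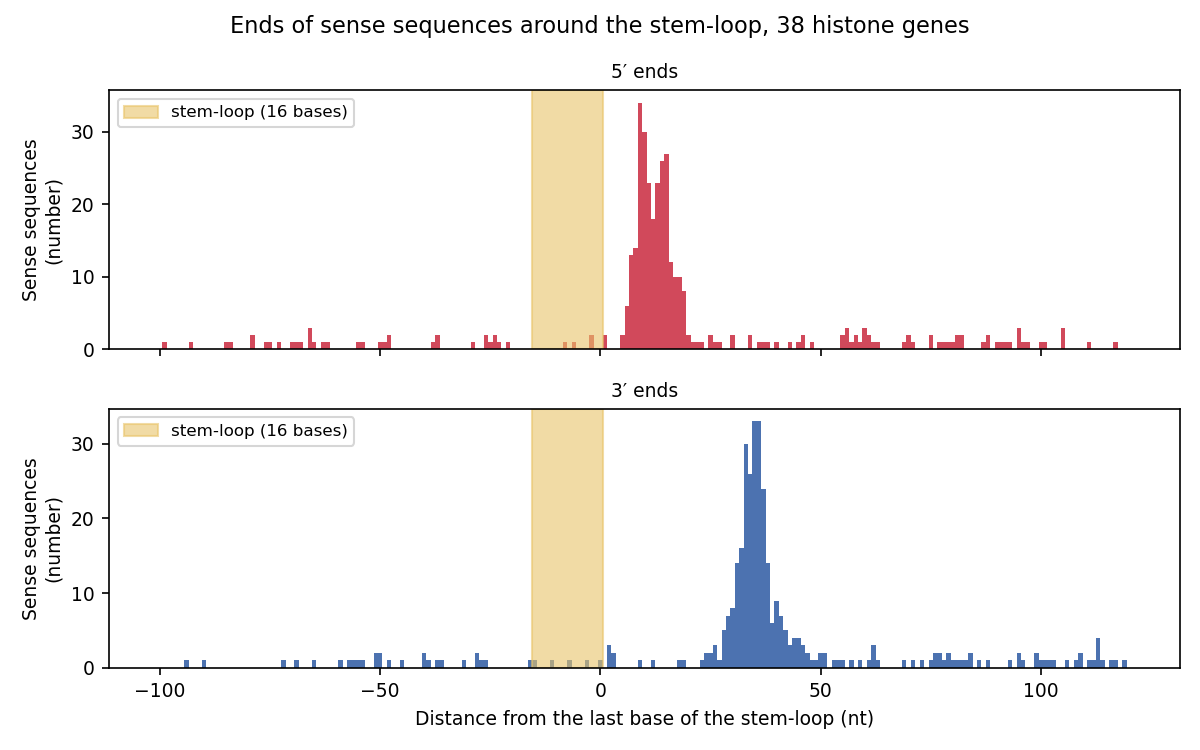
Number of sense sequences whose 5′ end (upper panel) or 3′ end (lower panel) lies at each distance from the last base of the stem-loop, in nt, over 38 histone genes of the DN3 control library; the shaded band is the 16-base stem-loop. The 5′ ends pile up around 12 bases and the 3′ ends around 35 bases after the stem-loop, and few 5′ or 3′ ends fall inside it. Many genes share the bases of the stem-loop, and the list held few sequences that fit several genes.

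The same stretch carried the complementarity to U7. Of the 280 sequences, 169 (60.4%, 54.4 to 66.1) held a run of 7 or more bases complementary to the first 20 bases of U7, and they came from 13 genes. Before the start codon 1 of 136 did (0.735%), in the coding sequence 0 of 146 (0 to 2.49%), and further downstream 4 of 206 (1.94%, 0.532 to 4.90). Among the sequences of all other genes in the list the share was 1.85% (983 of 53037). A run of 6 or more was held by 233 of the 280 (83.2%), from 23 genes, against 5.15% before the start codon, 6.16% in the coding sequence, 12.5% (2 of 16) from the stop codon to the end of the stem-loop and 4.37% further downstream. Of the 19 sequences over 2000 bases away 12 (63.2%) held a run of 6, and 11 of these were listed for Hist2h3c1, whose distant entries are described below. Leaving out Hist1h1c, 49.5% (42.6 to 56.5) of the remaining 212 sequences held a run of 7. With each of the 31 genes counted equally, the mean share was 38.1%, and of the merged clusters 40% (22.7 to 59.4) held a run of 7. A match in letters is a description and does not show pairing in the cell.

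**Figure D2:**
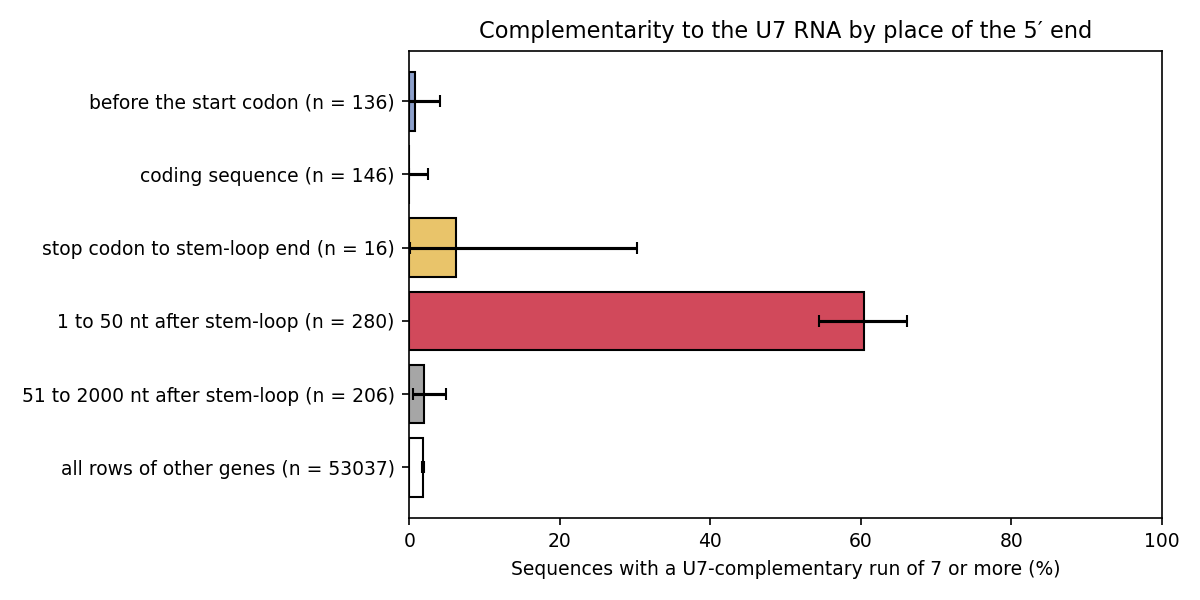
Share of distinct sequences (%) that hold a run of 7 or more bases complementary to U7 bases 1 to 20, by where the 5′ end of the sense histone sequence lies; bars are shares, whiskers 95% exact binomial intervals, and the lowest bar is all other genes of the list. The stretch 1 to 50 nt after the stem-loop stands at 60.4%, and the upper bound of every other bar's interval is below its lower bound of 54.4%. The 19 sequences over 2000 nt away, of which 0 held such a run, are not drawn.

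The runs also lay at similar places in each gene. In the best sequence of each of the 13 genes the run began 14 to 22 bases after the stem-loop, with a median of 17, and had a median length of 8 bases. In 8 of the 13 genes it covered U7 bases 11 to 16, a stretch that overlaps the complement of the word AGAGCT but is not the same. The central word AGAGCT stood in 144 of the 1230 histone sequences (11.7%, 9.96 to 13.6) and in 1.31% of the sequences of other genes, read on the strand of the small RNA. Runs of 9 or more were held by 156 sequences of the whole list, and 93 of these (59.6%, 51.5 to 67.4) belonged to histone genes. These 93 came from 7 genes, many of them overlapping, with 50 from Hist1h1c, 24 from Hist1h1d and 7 from Hist1h1e.

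The 111 sequences of the stretch with shorter runs were placed much alike. Their 5′ ends had a median of 13 and their 3′ ends of 36 bases, against 12 and 35 for the 169 with a run of 7. Hist1h3g, an H3 gene, gave 20 such sequences with a longest run of 6, starting 7 to 27 bases after its stem-loop. Hist1h4c, an H4 gene, gave 5 that started 8 to 9 bases after it, with a longest run of 5. Examples, chosen after their values were seen, are printed to show genes with no run of 7 among their sequences in this stretch, again with the longest run in capitals.
Hist1h3g: tccaaaAAAAGAactgtagcgctttttc
Hist1h3d: tttctaTAAAAGgctgtatatcgata
Hist1h3b: gtttctgTAAAAGcagctgttacttt
Hist1h4d: ctcacttaaagGAGCTGctcttaggtggt
Hist1h2ac: ttcAAAAGAagagttgaacaggatactcta
Hist1h2bm: gttctttgAAAAGggctagcacagcaca
Hist1h4c: attcctaggagttgttCACTTaccgaa
The longest runs shown are 5 to 6 bases, and all of these sequences start 8 to 9 bases after the stem-loop of their gene.

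**Figure D3:**
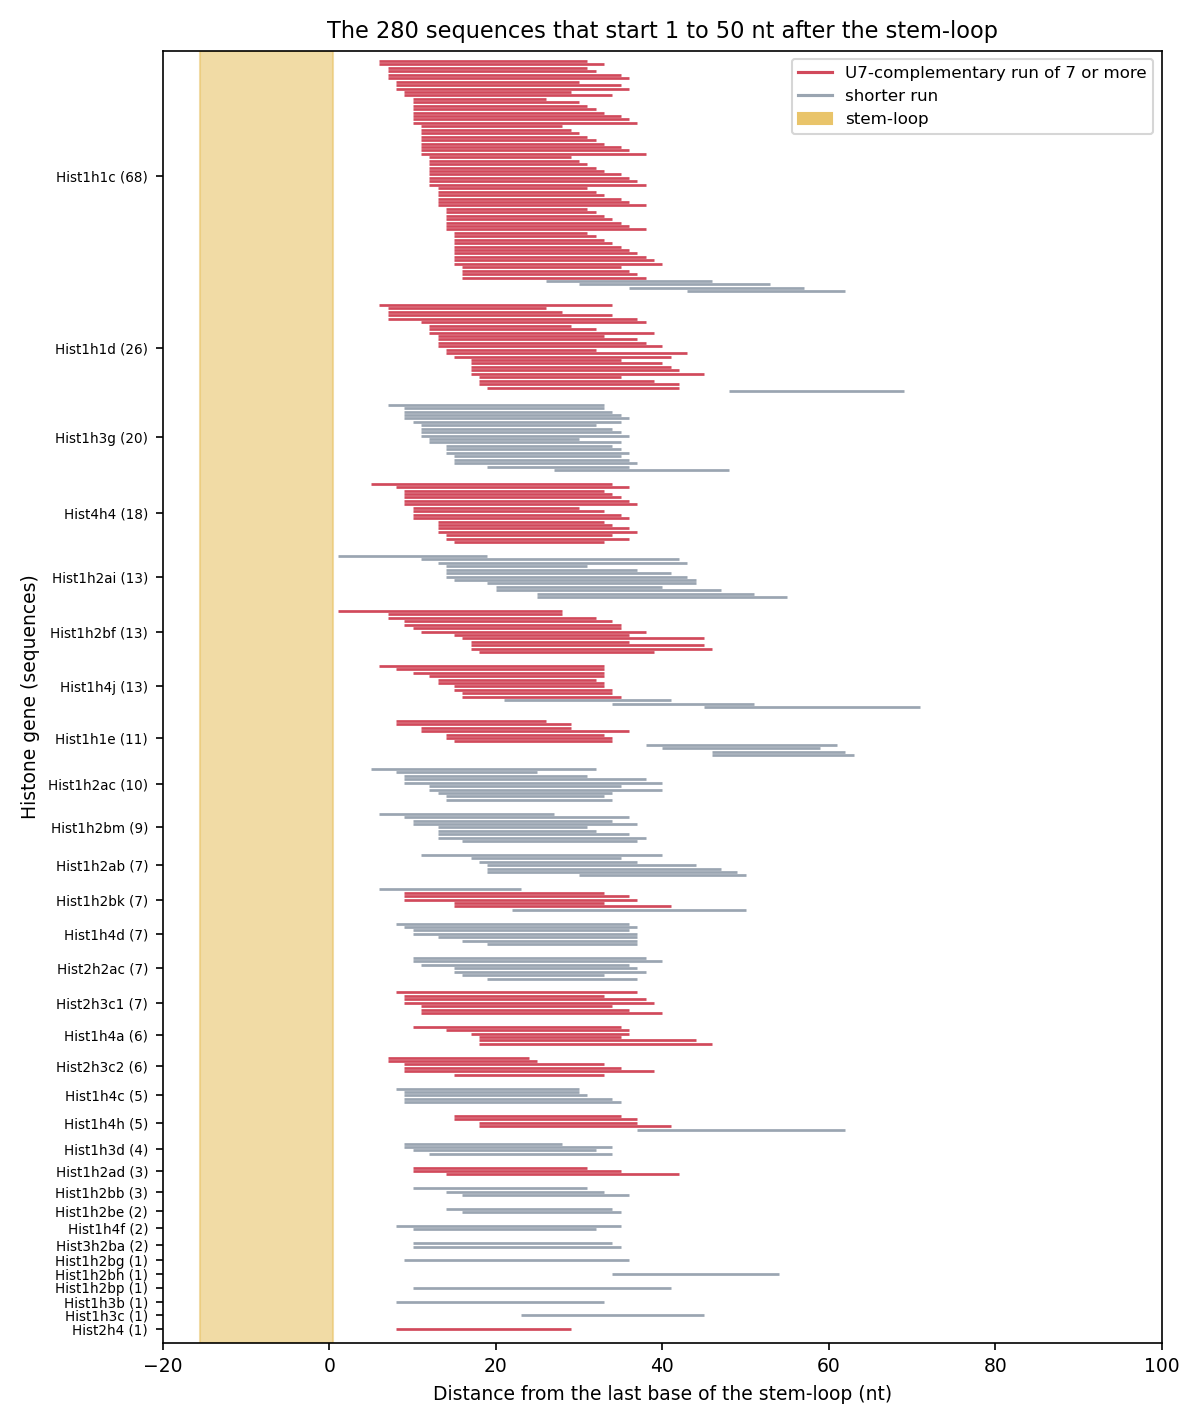
Each line is 1 of the 280 sequences that start 1 to 50 nt after the stem-loop, drawn from its 5′ to its 3′ end along the distance from the last base of the stem-loop (nt), grouped by gene with the number of sequences in brackets. Red lines hold a U7-complementary run of 7 or more and grey lines a shorter one; most lines of both colours end 30 to 40 nt after the stem-loop.

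Hist1h1c, which encodes a linker histone, had the most sequences of the 61 genes, 114, and only 4 genes of the whole list had more. Of its 111 sense sequences, 68 started in the stretch after the stem-loop, 18 in the coding sequence, 4 before the start codon and 21 further downstream. The 68 started 6 to 43 bases after the stem-loop (median 12) and ended 26 to 62 bases after it (median 34.5), and 64 of them held a run of 7 or more. The densest 30-base window of any histone gene lay here and contained 53 distinct sequences with 8 different 5′ ends and 12 different 3′ ends. The sequences at its edges show how the ends step along the same stretch.
Hist1h1c, 5′ edge: cacttAAGAGCTGTgacattt
Hist1h1c, 3′ edge: GAGCTGTgacatttgtgtgatta
The first lies at chr13:23739536-23739556 and the second at chr13:23739543-23739565 in GRCm38.

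Hist1h1d, a second linker histone gene, had 78 sequences, 26 of them in the stretch after the stem-loop and 25 of these with a run of 7. Hist4h4, which encodes H4 outside the large cluster on chromosome 13, had 45 sequences. All 18 of its sequences in the stretch held a run of 7, and they started 5 to 15 bases after the stem-loop. Hist1h1e had 39 sequences, with 11 in the stretch and 7 with a run. Hist1h2be, an H2B gene, differed. It had 42 sequences, of which 2 lay in the stretch, 18 lay further downstream and 3 lay over 2000 bases away, and none held a run of 7. Hist1h4j and Hist1h2bf, named after their values were seen, had 13 sequences each in the stretch out of 16 in all.

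The remaining genes among the 15 with the most sequences were Hist1h2bc (39), Hist2h2bb (36), Hist1h2ak (32), Hist1h1b (31), Hist1h2ai (31), Hist1h1a (30), Hist1h4a (29), Hist2h3c1 (29), Hist1h3g (28) and Hist1h4d (28). The median was 16 sequences per histone gene, against 3 per gene over the 10786 other genes. At least 10 sequences were listed for 43 of the 61 histone genes (70.5%) and for 11.3% of the others. At the low end, Hist1h1t, the testis H1, had 1 sequence and that was antisense, while Hist1h2aa, a testis H2A, and Hist2h2aa2 had 1 sense sequence each.

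**Figure D4:**
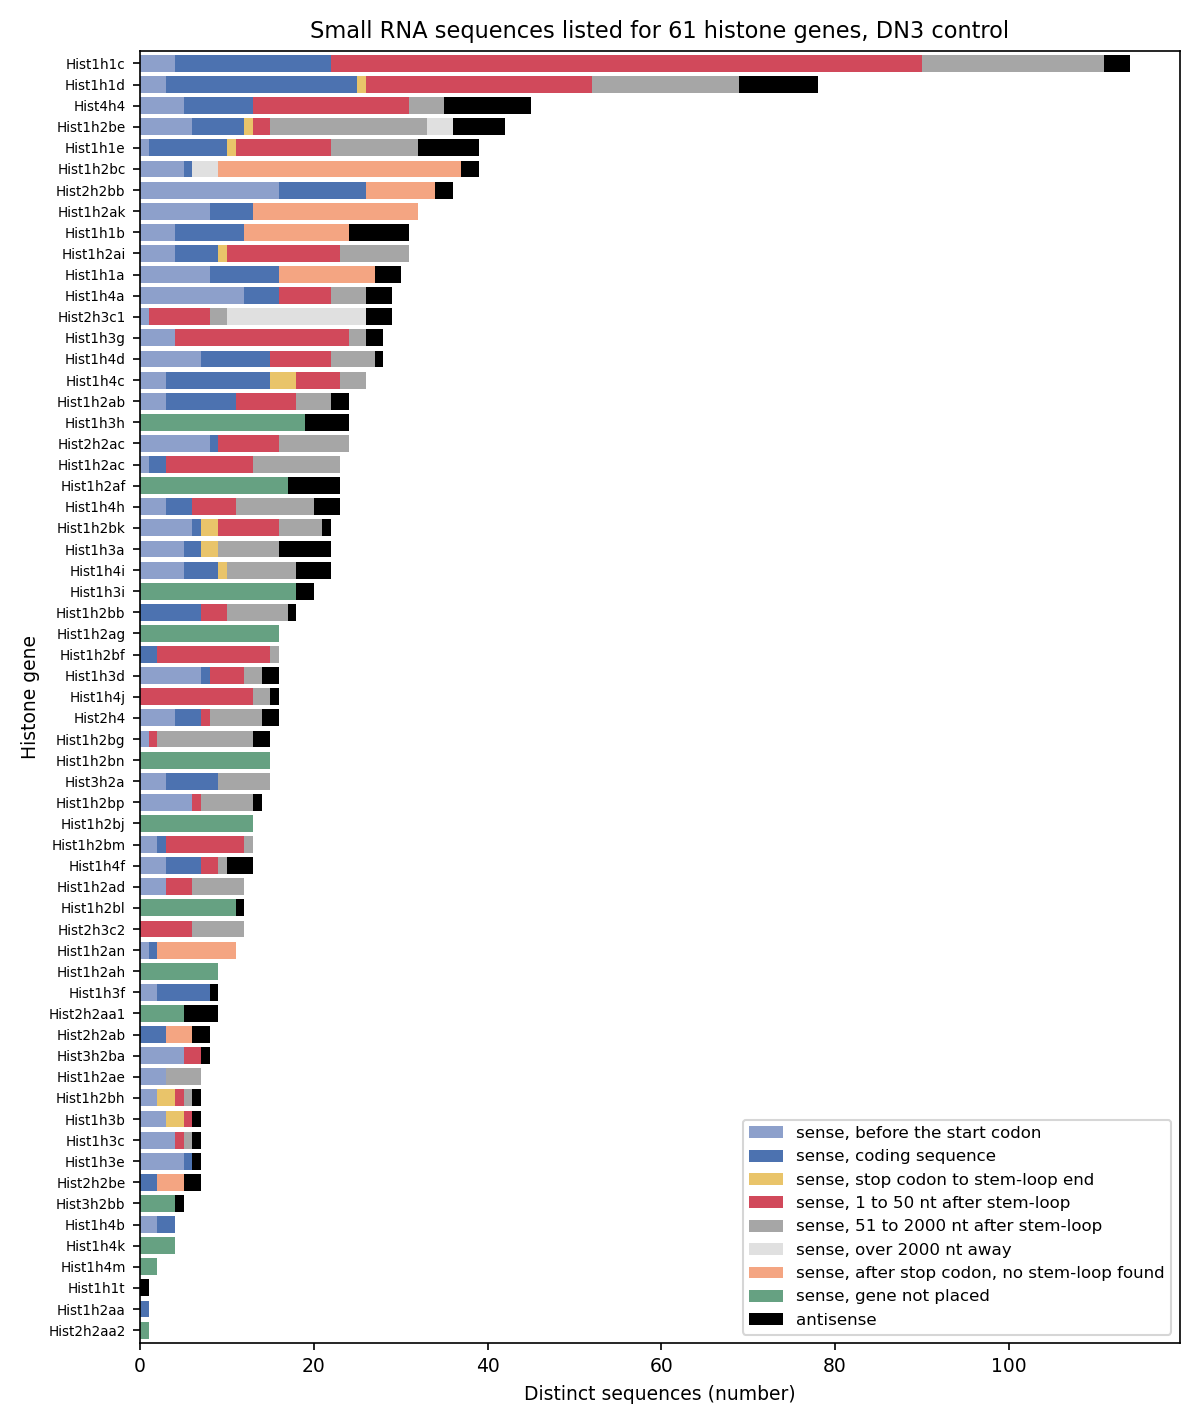
Number of distinct sequences for each of the 61 histone genes, stacked by orientation and, for sense sequences, by where the 5′ end lies. Red segments are sequences that start 1 to 50 nt after the stem-loop; they form the largest segment in Hist1h1c (68 of 114) and Hist1h3g (20 of 28).

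In 9 placed genes no stem-loop was found, and the distance from the stop codon was used instead. The search read only GENCODE transcripts and the small RNAs, not the genome. A stem-loop beyond the annotated end of a transcript could therefore be missed. Of 93 sense sequences after the stop codon in these genes, 52, from 7 genes, started 45 to 90 bases after it. Of the 52, 25 (48.1%, 34.0 to 62.4), from 4 genes, held a run of 7, against 12.2% of the other sequences after the stop codon. Hist1h2bc had 11 such sequences, which started 57 to 66 bases after the stop codon and all held a run of 7. Hist1h1a had 11 that started at 57 to 64 bases, 10 of them with a run. Hist1h2ak had 16 at 48 to 81 bases, of which 2 held a run, and Hist2h2bb had 6 at 45 to 74 bases, none with a run of 7.

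Hist2h3c1 held a second group of entries. Of its 26 sense sequences, 16 lay about 21 kb past its stop codon in the coordinates of the list, and they included an intact stem-loop. Within 50 bases of that stem-loop 11 sequences started, 10 of them 9 to 11 bases after it, with a longest run of 6. Which gene copy this place belongs to was not determined here. Hist1h2bj, which could not be placed, had 6 sequences with a run of 7 in its 3′ flank. An example of each group follows, with the run in capitals.
Hist2h3c1, second place: gtcgatgaaagtAGCTGTgtcagctttgca
Hist1h2bj: aagAGAGCTGctgcatgtctactgc

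Sequences that contained the stem-loop itself were few. Its commonest form was shared by 21 of the 38 genes, and few matched sequences (3 of 648) fit more than 1 histone gene. Short sequences within the stem-loop may thus be missing from the list, which was not tested. The 7-letter core TTNTNAG, read on the strand of the small RNA, occurred in 44 of the 1230 histone sequences (3.58%, 2.61 to 4.77) and in 1.67% of other genes' sequences. A full hairpin of 6 exact pairs with this core occurred in 7 of the 44 and in 0 of 53037 sequences of other genes, which allows a share of up to 0.00696%. In the 38 placed genes 6 sense sequences, from 5 genes, held the whole stem-loop. Those sequences end at most 3 bases past it, as these show, with the hairpin in capitals.
Hist1h4c: tgtcaacaaaaGGCCCTTTTCAGGGCCac
Hist1h2bh: taacccaaaGGCTCTTTTCAGAGCCact
Hist1h1d: atctcaaacGGCTCTTTTCAGAGCCac
Hist1h2bk: gcaccaaaGGCTCTTTTAAGAGCCac
Hist1h2ai: accaaaGGCTCTTTTCAGAGCCact
The Hist1h4c sequence lies at chr13:23698087-23698115 (minus strand), the Hist1h2bh sequence at chr13:23542925-23542952 (minus strand) and the Hist1h1d sequence at chr13:23555778-23555804 (plus strand) in GRCm38. Across the 38 genes 9 sequences in 7 genes spanned the last base of the stem-loop.

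The start codon was the other place where sequences gathered. In the 47 placed genes, 217 sense sequences from 41 genes started between 60 bases before and 30 bases after the first base of the start codon, and 86 sequences from 34 genes held the start codon. H4 genes gave 34 of the 86, H3 genes 17, H2B genes 16, H2A genes 15 and H1 genes 4. Starts deeper in the coding sequence, beyond base 30, numbered 126 in 29 genes, and 64 of these were in H1 genes and 6 in H3 genes. The list assigns each sequence to 1 gene, and no sequence of the list is repeated. Of 648 histone sequences that matched a histone transcript, 3 matched transcripts of more than 1 histone gene. Of the 20-base words in the coding sequences, 78.4% occurred in 1 histone gene only for H1, 26.8% for H4, 21.3% for H2B, 19.8% for H2A and 6.59% for H3. In the 100 bases after the stop codon the share was 78.5% over all classes. Over all classes 28.3% of the coding words occurred in 1 gene only. Sequences that fit several histone genes were nonetheless nearly absent among the 648. The matched sequences thus cover almost only stretches that 1 histone gene holds alone. How reads that fit several copies were treated is not known. Coding and downstream counts of the core histones were therefore not listed on equal terms, nor were coding counts of H1 and core histones. How far this shaped the start codon and class counts was not tested. The following were chosen after their values were seen, and each holds the start codon, atg.
Hist1h3b: tgttaaagtcatggctcgtac
Hist1h3a: gtttttgctatggctcgtactaa
Hist1h4h: aagtacaccatgtctggtcg

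By class, the 6 genes of the linker histone H1 held 293 of the 1230 sequences (23.8%, 21.5 to 26.3). The 16 H2B genes held 282 (22.9%), the 16 H2A genes 246 (17.8 to 22.3%), the 12 H4 genes 228 (18.5%) and the 11 H3 genes 181 (14.7%, 12.8 to 16.8). Per gene the medians ran from 13.5 for H2A to 35 for H1, with 16 for H3 and 19 for H4. The leading genes were Hist1h1c for H1, Hist1h2be for H2B (42), Hist1h2ak for H2A (32), Hist4h4 for H4 and Hist2h3c1 for H3 (29). Without Hist1h1c the H1 share was 16%. In the stretch after the stem-loop started 49.5% (42.6 to 56.5) of the sense sequences of the 3 H1 genes with a placed stem-loop. The share was 32.5% for H3, 29.9% for H2A, 29.2% for H4 and 27.5% for H2B, with intervals that overlap one another. A run of 7 was held by 91.4% (84.4 to 96.0) of the H1 sequences in the stretch, 68.4% of H4, 46.2% of H2B, 33.3% of H3 and 7.5% (1.57 to 20.4) of H2A. These class values rest on few genes, since 3 H1, 5 H4, 2 H2B, 2 H3 and 1 H2A genes held such a run.

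Most histone sequences were sense. Of the 1230, 1114 (90.6%, 88.8 to 92.1) had the orientation of their gene, against 72.2% (71.8 to 72.6) of the other genes' sequences, a difference of 18.4 percentage points. After sequences that overlap were merged into clusters the difference was 10.8 points. By class the sense share ran from 86.7% for H3 to 94.3% for H2A. Transcripts of ribosomal protein genes, which are abundant and carry poly(A) tails, had a sense share of 92.5% (90.9 to 93.9) over 1243 sequences. Of those ribosomal protein sequences 1.29% lay in the 3′ flank and 1.85% held a U7 run of 7. For the 19 S phase genes the sense share was 83.0% over 141 sequences, with 0 in the 3′ flank.

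The genic category given in the list set the histone genes apart. The 3′ flank of the transcript held 585 histone sequences (47.6%, 44.7 to 50.4) but 1.12% of the sequences of other genes, so that the 61 histone genes held 49.5% of all 1181 entries of this category. Coding exons held 31.1%, 3′ UTRs 7.15%, 5′ flanks 4.31%, 5′ UTRs 3.17% and introns 3.25%, and 3.5% were labelled by gene only. In other genes introns were the largest category, with 48.0%. The labels depended on the gene models used for the list and did not always follow the GENCODE codons. Of 346 placed sense sequences labelled coding exon, 150 (43.4%) started after the stop codon, and the Hist1h1c and Hist1h1d sequences shown above are among these. Of 432 labelled 3′ flank, 82 (19.0%) started at or before the stop codon. For that reason positions, not labels, were used for the values above. Of the sense sequences that matched a GENCODE transcript of their gene, 94 of 644 (14.6%, 12 to 17.6) started in the last 25% of that transcript. This share leaves out the sequences beyond the annotated ends.

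Antisense sequences numbered 116 and came from 40 genes. Hist4h4 had 10, Hist1h1d 9, Hist1h1b and Hist1h1e 7 each, Hist1h2af, Hist1h2be and Hist1h3a 6 each, Hist1h3h 5, and Hist1h4i and Hist2h2aa1 4 each. By label 48 lay in the 3′ flank, 25 in the 5′ flank and 22 in coding exons. None lay within another placed histone gene in the sense direction. Of the 116, 17, in 11 genes, overlapped a sense sequence of the same gene by at least 15 bases. A single antisense sequence, in Hist1h1b, formed with a sense sequence the 2-base 3′ overhangs that Dicer leaves on a duplex. It was 26 nt long, outside the 21 to 23 nt range. The share of 21 to 23 nt was 27.6% (19.7 to 36.7) for antisense and 25.4% (22.9 to 28.1) for sense sequences. A U7 run of 7 was held by 4 of the 116. Long antisense sequences of at most 30 nt are given as examples, with longest runs of 4 to 5 bases.
Hist1h4d: aacacattgccctcaagagtgacaatttat
Hist2h2aa1: cctgctctggaagctggcaaagtgtgccct
Hist1h3c: actactttggagttgggtaaagtaaaatc
Hist4h4: aatgagacgctcataactagtgagaact

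The lengths of the histone sequences were unlike those of miRNAs. They ran from 15 to 32 nt with a median of 22.0 and a mode of 18 nt, which 187 sequences had. Of the histone sequences 211 were under 19 nt and 27 over 30 nt, outside the range taken from the gel. The mode thus lay just below that range. The share of 21 to 23 nt was 25.6% (23.2 to 28.1), close to the 24.1% of other genes' sequences, while in the miRNA list of the same library 56.3% (53.3 to 59.3) of the 1067 sequences had this length. None of the miRNA list's sequences was among the histone entries. Sequences of 25 nt or more made up 32.0% (29.4 to 34.7) of the histone entries and 23.7% of other genes' entries. The sequences that started 1 to 50 bases after the stem-loop were longer, with a median of 24 nt and 44.6% of at least 25 nt, and 26 nt was their most common length (11.4%). Those in the coding sequence had a median of 21 nt and 26% of at least 25 nt. The first base was A in 45% of the sequences after the stem-loop, U (written T) in 24.6%, C in 16.8% and G in 13.6%. In the coding sequence G led with 38.4%.

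**Figure D5:**
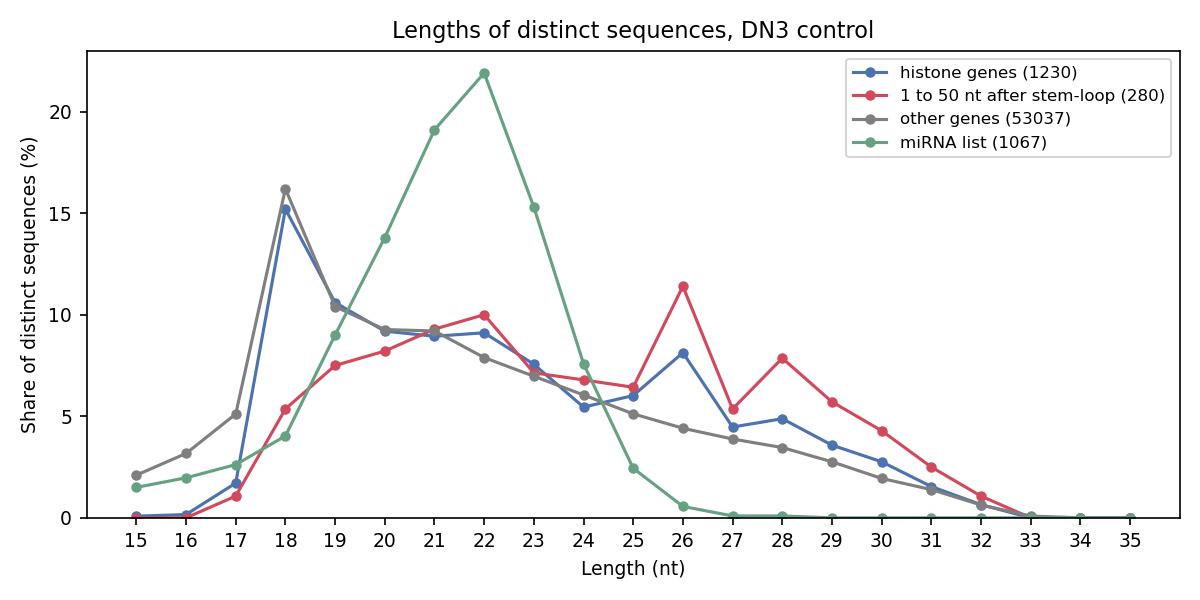
Share of distinct sequences (%) at each length (nt) for all histone entries, those that start 1 to 50 nt after the stem-loop, the other genes of the genic list and the miRNA list of the DN3 control library. The miRNA list peaks at 22 nt (21.9%), whereas the histone and other entries peak at 18 nt and the sequences after the stem-loop at 26 nt.

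Histone genes outside the 4 prefixes gave 65 sequences in 9 genes, with a sense share of 78.5% (66.5 to 87.7). H3f3b had 20, H3f3a 12, H2afx 11, H2afz 8, H2afy 5, H2afj 4, Cenpa and H1f0 2 each and H1fx 1. H3f3a and H3f3b encode the replacement variant H3.3, whose mRNAs are polyadenylated, and none of their 32 sequences held a U7 run of 7. The share outside the 4 prefixes was 1.85%, so none in 32 shows no difference from it. H2afx, whose mRNA is known in both a stem-loop and a polyadenylated form, had 1 sequence with a run of 9, and H2afz had 1 with a run of 9. Both are printed with the run in capitals.
H2afx: cctcacagAAAGAGCTGa
H2afz: aacccAAAGAGCTGcatt
The H2afx sequence lies at chr9:44335264-44335281 on the plus strand of GRCm38.

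A list drawn up around the synthesis, 3′ end formation and decay of histone mRNA gave 129 sequences under 23 of its 27 symbols, with a sense share of 71.3%. Of the symbols without a sequence, Ars2 is another name of Srrt, which had 11. The most, 19, came from Mat2a, an S-adenosylmethionine synthetase and so a metabolic enzyme that the list should not have held. Slbp, the stem-loop binding protein, had 9, and Cpsf3 had 4. Of the 129, 1 lay in the 3′ flank. Most markers of the sample's label had sequences. Of 22 DN3 thymocyte markers 20 had sequences, 438 in all, among them Notch1 (65), Lck (58), Il2ra (28), Dntt (25) and Rag1 (21). Ptcra and Tcrb had none. Of the 438, 339 were sense and 193 were labelled intron. Of 7 myeloid and 6 erythroid markers none had a sequence, while 6 B cell markers gave 3 sequences, 7 stroma markers 1 and 7 later T cell markers 9. Cd4, Cd8a and Foxp3 had none. These numbers may grow with gene length, which was not tested, and are not levels.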

How the data were processed

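The members and lists were chosen with earlier results of these data known. The genic list deposited by the authors gives each distinct sequence with gene, place, orientation and category, and no count. Its coordinates count from 0. Their genome build and the aligner are not given in the sources used here. A normalized mapping value in the miRNA list, a score deposited by the authors, went unused, and that list was used only for sequences and lengths. Sequences were taken as deposited, without a filter. The GENCODE M21 annotation (GRCm38) served to locate codons and stem-loops by exact matches. GRCm38 positions are printed only for such matches. Stem-loops were hairpins of 6 pairs, with at most 1 mismatched, and the core TTNTNAG. Complementarity was the longest exact run against U7 bases 1 to 20, without G:U pairs. Placing was checked on simulated sequences drawn from within the transcripts. Sequences past the annotated end of a transcript were placed by the offset of their gene, and the simulation did not cover them. Shares carry 95% Clopper-Pearson intervals (SciPy 1.17.1, pandas 2.3.3, Python 3.11.15). The depth is unknown. Named were the 15 genes with the most sequences, the leading gene per class, genes with antisense or core sequences, up to 10 each, and others as stated. Ribosomal protein genes were taken as symbols beginning with Rpl or Rps, without the Rps6k kinases. Alternatives changed counting, categories, members and lengths.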

Additional observations from a re-analysis of the deposited data

How the results depend on the processing

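No paired analysis was possible because there is 1 library and no test. Of 95 recomputed values, 59 stayed within the counting interval or within 1.5 times the count, 36 moved and 0 reversed. Counting file rows in place of distinct sequences could change nothing, because no sequence is repeated. Leaving out sequences that fit more than 1 histone gene removed only 3. All values of both settings are among the 59, so that number overstates stability. Merging overlapping sequences left 489 clusters, with a sense share of 80.8%, a sense difference of 10.8 points, coding exons 26.6%, 21 to 23 nt 22.5%, and class shares of 19.4% (H1), 25.6% (H2B), 17.8% (H3) and 16.2% (H4). With exonic categories only, 509 sequences remained, with sense 92.5%, coding exons 75%, starts in the last 25% of the transcript 8.06%, core 2.16%, and classes 48.9% (H1), 12.2% (H2A), 17.3% (H2B), 9.23% (H3) and 12.4% (H4). Without Hist1h1c, coding exons were 24.6% and H1 16%. With 21 to 24 nt only, starts in the last 25% of the transcript were 18.2%, H2B 20.2%, H4 20.9% and the sense difference 14.9 points. Requiring an exact hairpin gave 0.569% in place of the core. Alternatives for the stretch after the stem-loop were added after seeing the data. Its share of sense sequences (34.9%) was 30.6% without Hist1h1c, 11.2% after merging, 27.5% as a mean over genes and 40.2% with a 100-base limit. Its share with a U7 run (60.4%) was then 49.5%, 40%, 38.1% and 52.6%, and 83.2% for runs of 6 and 43.6% for runs of 8. The fall after merging follows from its construction, since many nested sequences become 1 cluster; other causes were not tested. The list has no abundance, so a place with many distinct ends is not shown to hold much RNA.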
